A study of Mus musculus with 4 samples.

Results

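Imprinted genes were examined in sorted embryonic mouse skin cells that carried, or did not carry, a keratinocyte-driven deletion of H3K9me3 methyltransferases. The members were a fixed list of 32 gene symbols from 16 imprinted domains, and all 32 were found, each once, among the 56980 genes of the count matrices. The group called TKO carried floxed Suv39h1 (f/f) and floxed Setdb1 (f/f) on a Suv39h2-/- background, with K14CreERT2. The group called Ctrl carried the same 3 alleles without the Cre. Both groups were exposed to tamoxifen, and Ctrl embryos were Suv39h2-/- as well, so by their labels the groups differed in the Cre alone. Each group had 2 libraries at E16.5 per the labels, each from 1 embryo (n = 2 for every mean below), and the TKO skin was mosaic by the study's description. The study's list of litters gives an earlier collection day for its single-cell litter, so the age is uncertain. The Krt14 promoter drives the Cre in keratinocytes and not in fibroblasts, so fibroblasts of the same embryo were used as cells in which the Cre is not driven.

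Imprinted genes are expressed mainly from 1 parental chromosome. A differentially methylated control region in each domain carries DNA methylation on only one parental allele, and the methylated allele also carries H3K9me3. The zinc-finger protein ZFP57 binds a methylated hexamer in many of these regions and recruits TRIM28 with SETDB1, the H3K9 methyltransferase deleted here. Several imprinted genes regulate fetal growth and the placenta, and many are switched down after birth. The 3′ UMI counts analysed here (a UMI is a tag that counts 1 captured RNA molecule) do not separate the parental alleles. All values below are therefore total levels, and whether a silent allele was read could not be measured.

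The libraries held 70749496 to 89655247 UMIs in 3804 to 5785 barcodes, and 10764 cells remained after the filters on genes and mitochondrial RNA and the removal of 457 doublets. Keratinocytes numbered 2845, 2989, 1565 and 1791 in Ctrl 1, Ctrl 2, TKO 1 and TKO 2, and fibroblast-like cells numbered 103, 103, 185 and 126. The labels call the sorted cells basal epithelial cells. All 7 basal markers were present in the keratinocytes, which also held differentiating-like and hair follicle-like cells, and other cell types were in the sort too. TKO keratinocytes were deeper, with a median of 30073 and 28052 UMIs per cell against 21960 and 17333 in Ctrl. From 12 to 24 barcodes per library also occurred in another library. Setdb1 was at 67.6 and 58.3 CPM (counts per 1e6 UMIs of the class) in Ctrl keratinocytes and at 39.4 and 42.4 in TKO (log2 change -0.64, SE 0.13, adjusted p = 0.0452). Suv39h1 did not pass the test there (-0.17, adjusted p = 0.472), and since UMIs come from the 3′ end of a transcript, its level does not check an upstream deletion. Suv39h2 was still counted, at 14.0, 17.1, 22.5 and 16.1 CPM in the 4 libraries. In fibroblast-like cells Setdb1 did not pass (0.08, adjusted p = 0.998). Xist (4 to 8 UMIs) and Ddx3y (4249 to 6194 UMIs) did not set the keratinocytes of any library apart by sex.

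The start regions of 4 raised members show how they differ in the ZFP57 hexamer TGCCGC, which was searched on both strands (as GCGGCA on the other). The motif occurred at least once in 11.6% of the 32851 RefSeq promoter windows of the same length, and in 25% of the 40 windows that matched 26 of the members. The hexamer holds a CpG, and the member windows had a median of 13.5 CpGs against 7 over all windows; the part of CpG content in these shares was not tested. These windows are RefSeq promoters on GRCm38.p6, written 5′ to 3′ on the strand of the gene, with the hexamer in capitals. Mest is on the plus strand, has 3 listed starts, and the window shown is the second of them. Nnat and Ndn are on the plus strand and Zim1 is on the minus strand.
Mest, chr6:30737800-30738099: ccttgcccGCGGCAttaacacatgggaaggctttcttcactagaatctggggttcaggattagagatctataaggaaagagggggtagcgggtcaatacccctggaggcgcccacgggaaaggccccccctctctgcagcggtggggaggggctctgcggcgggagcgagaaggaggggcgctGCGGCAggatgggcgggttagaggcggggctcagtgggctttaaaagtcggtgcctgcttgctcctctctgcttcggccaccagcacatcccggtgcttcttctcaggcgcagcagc
Zim1, chr7:6696383-6696682: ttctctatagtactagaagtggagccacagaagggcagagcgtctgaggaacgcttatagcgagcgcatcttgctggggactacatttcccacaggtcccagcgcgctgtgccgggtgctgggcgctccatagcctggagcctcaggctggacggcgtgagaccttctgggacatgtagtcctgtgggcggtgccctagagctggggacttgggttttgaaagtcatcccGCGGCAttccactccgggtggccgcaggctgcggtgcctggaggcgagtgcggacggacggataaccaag
Nnat, chr2:157559828-157560127: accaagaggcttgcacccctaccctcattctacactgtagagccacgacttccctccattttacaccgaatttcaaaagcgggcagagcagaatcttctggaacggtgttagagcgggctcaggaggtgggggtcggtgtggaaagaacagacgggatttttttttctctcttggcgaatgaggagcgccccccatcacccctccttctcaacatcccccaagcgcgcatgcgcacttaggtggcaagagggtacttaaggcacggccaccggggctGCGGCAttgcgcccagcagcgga
Ndn, chr7:62348027-62348326: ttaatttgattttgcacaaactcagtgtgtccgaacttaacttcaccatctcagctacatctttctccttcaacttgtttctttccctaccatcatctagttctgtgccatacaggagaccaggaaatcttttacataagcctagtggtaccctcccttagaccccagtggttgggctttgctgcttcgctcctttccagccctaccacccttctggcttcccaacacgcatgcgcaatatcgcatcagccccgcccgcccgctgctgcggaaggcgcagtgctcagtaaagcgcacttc
The Mest window held the hexamer 2 times, the Zim1 and Nnat windows held it 1 time each, and the Ndn window held none. Of the other Mest windows, chr6:30733256-30733555 held none, and chr6:30737803-30738102 nearly repeats the one shown. Of the 10 members called in at least 1 test, all 10 had a window and 5 of them had the hexamer in at least 1 window, against 9 of the 26 members with a window and 3527 of the 27025 genes in the table. Among the raised members not shown, Meg3 had a window with the hexamer, while Peg3, Phlda2 and Rian had none. The windows are gene starts and need not be the control region of a domain. A match is a description of the letters only, and binding and methylation were not measured here.

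UMIs were summed per library and cell class, and the sums were tested with edgeR across all genes, with an adjusted p under 0.05 as the call. In basal-like keratinocytes, 8 members rose and 2 fell in TKO among the 29 tested: Mest, Zim1, Peg3, Nnat, Ndn, Phlda2, Meg3 and Rian were raised, and Ascl2 and Igf2 were lowered. Over all genes tested there, 8.12% were raised and 4.48% were lowered. In hair follicle-like cells, 6 of 27 members tested were raised (Mest, Nnat, Ndn, Phlda2, Meg3 and Rian) and none was lowered, against 6.81% and 5.47% of all genes. Those 6 calls depended on how cells were assigned: 2 members were called with uncorrected components or with Leiden resolution 0.5, and 0 without TKO 1 or without TKO 2. Without TKO 1 no gene of 16477 was called (3053 at an unadjusted p under 0.05), and without TKO 2 only 3 of 16642 were. Over all keratinocytes, 4 of 30 members tested were raised (Mest, Zim1, Nnat and Rian) and Ascl2 was lowered, against 4.4% and 2.61% of all genes. The median log2 change of the members was -0.01 in basal-like cells and that of all genes was -0.02.

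In differentiating-like cells no member was called by edgeR among 26 tested, where 0.978% of all genes were called. The unadjusted p was under 0.05 for 8 of the 26 and for 2350 of all 14424 genes, and DESeq2 called 2 members and 664 genes. In fibroblast-like cells no member was called among 27 tested, and 0.0174% of all genes were called. There the unadjusted p was under 0.05 for 0 of 27, and DESeq2 called 0. The changes in fibroblast-like cells ran from -0.28 to 0.35 on the log2 scale with a median SE of 0.29, and 12 of 27 were positive. The Ctrl libraries differed from each other in this class: without Ctrl 1 the members' median was -0.26, with 6 of 28 positive and 3 at an unadjusted p under 0.05. Of all genes in that fit, 51.5% were positive and 907 of 12629 were at that level. Without Ctrl 2 the median was 0.35, with 23 of 27 positive and 7 at that level, against 52.4% positive and 909 of 12598 over all genes. No member was called in either fit. Simulated log2 changes of 1 and 2 in this class were recovered in 44% and 100% of the changed genes, which were drawn from those above the median mean expression. Smaller changes, and changes in genes with fewer counts, could therefore be missed at this depth.

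**Figure D1:**
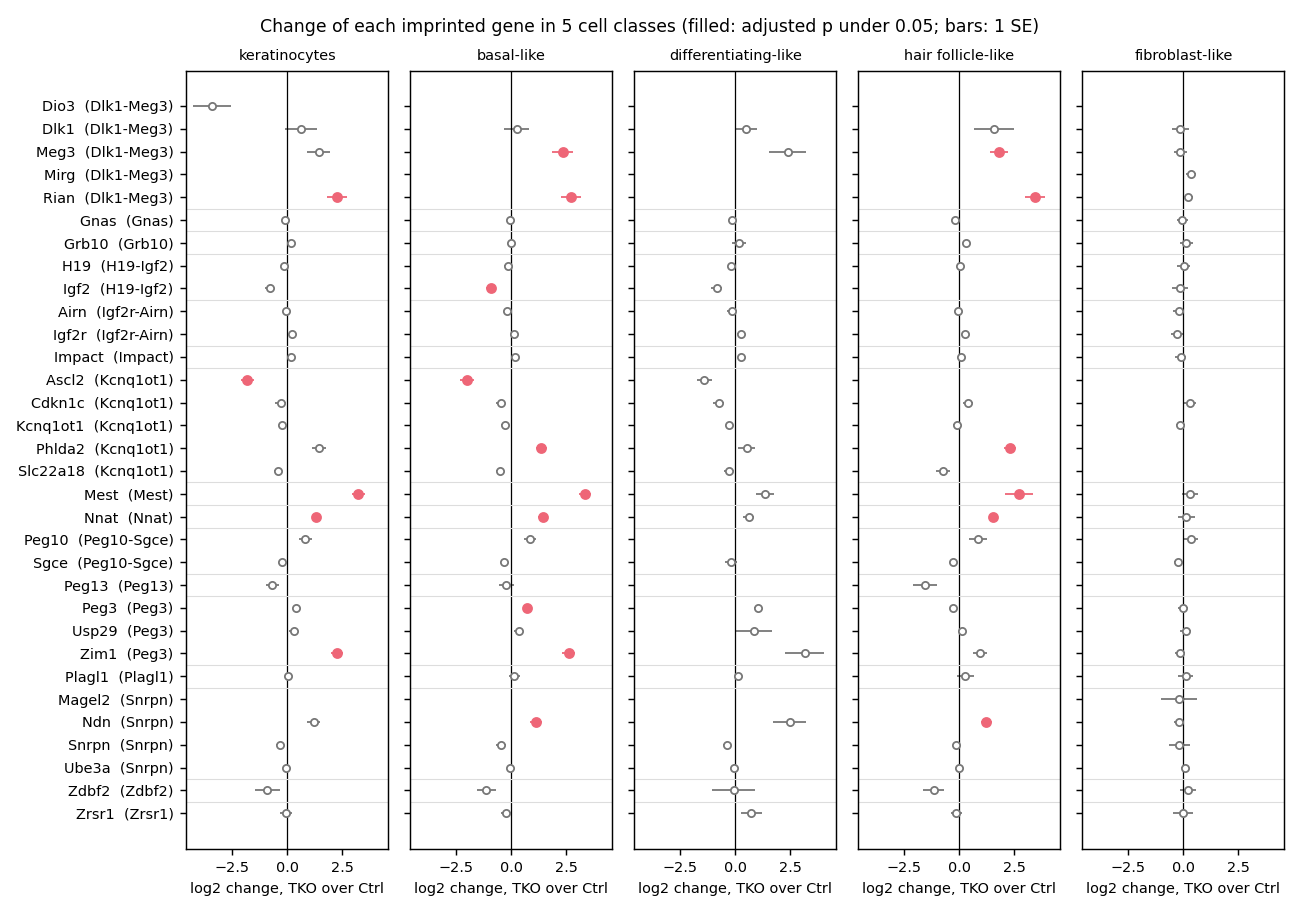
Log2 change (TKO over Ctrl, x axis) of each imprinted gene, ordered by domain, in 5 cell classes; filled points have an edgeR adjusted p under 0.05, bars are 1 SE, and a gene not tested in a class has no point. The fibroblast-like panel stays between -0.28 and 0.35, while Mest reaches 3.36 in basal-like cells.

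Mest had the largest rise of any member in basal-like cells. It encodes an alpha/beta hydrolase-fold protein of embryonic mesoderm, is expressed from the paternal allele, and lies on chromosome 6 at 30723546 to 30752058 (GRCm39, plus strand), where it overlaps Copg2 on the other strand. Basal-like Mest stood at 2.25 and 3.92 CPM in Ctrl and at 33.9 and 29.9 CPM in TKO. The 2 groups were far apart, and the change was 3.36 (SE 0.26, adjusted p = 0.00111). Hair follicle-like cells had 1.91 and 2.48 CPM in Ctrl and 22.6 and 5.31 CPM in TKO, a change of 2.70 (SE 0.63, adjusted p = 0.0345). The follicle value leaned on TKO 1: it was 1.34 without it, and leaving out any 1 library ended the call. The call was also lost with cells thinned to 5000 UMIs, with doublets kept, with uncorrected components and with Leiden resolution 0.5. In differentiating-like cells the levels were 1.37 and 0.91 CPM in Ctrl and 3.87 and 2.58 CPM in TKO (1.34, SE 0.40, adjusted p = 0.206).

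Fibroblast-like cells carried Mest at 454, 997, 926 and 905 CPM in Ctrl 1, Ctrl 2, TKO 1 and TKO 2, so the groups overlapped (0.30, SE 0.36, adjusted p = 0.998). Over all keratinocytes Mest was at 1.90 and 2.86 CPM in Ctrl and 27.6 and 17.7 CPM in TKO (3.23, SE 0.30, adjusted p = 0.00718). Without Ctrl 1 that value was 2.99 with an adjusted p of 0.21. The test of the difference between keratinocytes and fibroblast-like cells, with the library as a block, gave 2.83 for Mest (SE 0.27, adjusted p = 0.00232), 1 of 3 members whose change was more positive in keratinocytes, against 0.292% of all genes. The share of cells with a Mest UMI restates the same counts and is not separate evidence. With every cell thinned to 5000 UMIs, a Mest UMI was found in 1.45% (95% exact interval 1.04 to 1.97) and 1.19% (0.83 to 1.65) of Ctrl keratinocytes. In TKO it was found in 8.84% (7.48 to 10.4) and 6.22% (5.15 to 7.44). Immune-like cells, which should lack Mest, had 0%, 2.08%, 1.65% and 1.08% in the same order of libraries, with 64 to 279 cells per library. The first of these, 0 of 64 cells, allows a share of up to 4.69% (3 counts of the total; the exact interval ends at 5.60%). Thinning left out 24, 39, 4 and 7 keratinocytes under 5000 UMIs, and the unthinned shares were 4.01%, 4.15%, 26.7% and 19.7%. These intervals cover counting error only.

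The Peg3 domain on chromosome 7 holds genes read from opposite parental alleles. Zim1, a zinc-finger gene expressed from the maternal allele (6674268 to 6699500, minus strand), was at 0.94 and 0.84 CPM in Ctrl basal-like cells and at 6.40 and 4.61 CPM in TKO. Both TKO libraries were above both Ctrl libraries, with a change of 2.61 (SE 0.29, adjusted p = 0.00374). Over all keratinocytes Zim1 changed by 2.27 (adjusted p = 0.0162), and without Ctrl 1 or Ctrl 2 the adjusted p was 0.257 or 0.0594. The difference from fibroblast-like cells was 2.39 (SE 0.32, adjusted p = 0.0124). That call was lost without Ctrl 2 (2.15, adjusted p = 0.0703), and without the library block the Mest and Ndn differences were 2.94 and 1.43 and did not pass. Fibroblast-like Zim1 was between 146 and 205 CPM in the 4 libraries.

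Peg3, a paternally expressed zinc-finger regulator of growth and maternal behaviour (6706882 to 6733468, minus strand), was at 101 and 87.7 CPM in Ctrl basal-like cells and at 178 and 133 CPM in TKO (0.71, SE 0.15, adjusted p = 0.0271). Without Ctrl 2 the change was 0.62 with an adjusted p of 0.108. Summed over hair follicle-like cells Peg3 sat the other way, at 159 and 183 CPM in Ctrl and 137 and 132 CPM in TKO, and did not pass the test (-0.30, adjusted p = 0.117). It was still higher in both TKO libraries in 2 of 4 follicle-like clusters. Usp29, a deubiquitinase gene that starts beside Peg3 on the other strand, ran from 6.80 to 10.9 CPM in keratinocytes with overlapping groups (0.29, adjusted p = 0.487).

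**Figure D2:**
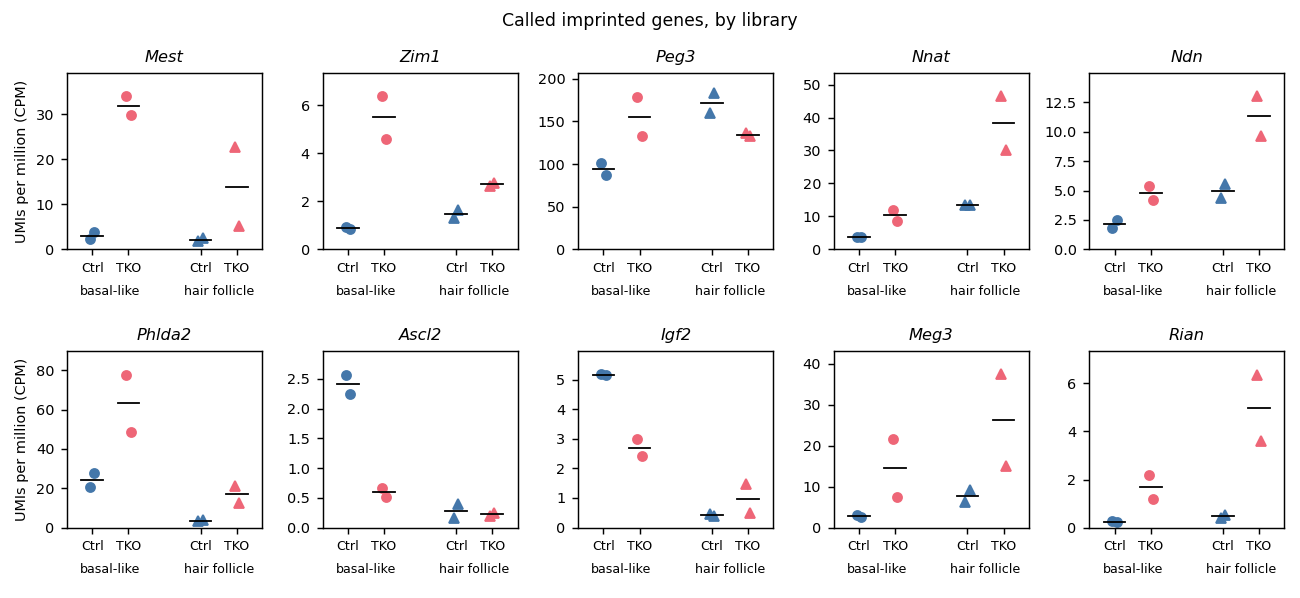
CPM (y axis, linear from 0) of the 10 called imprinted genes in each library, in basal-like (circles) and hair follicle-like (triangles) cells; horizontal bars are group means of 2 libraries. Both TKO points lie above both Ctrl points for Mest, Zim1, Nnat, Ndn, Phlda2, Meg3 and Rian in both classes; in basal-like cells they lie below for Ascl2 and Igf2, and Peg3 lies above in basal-like and below in hair follicle-like cells.

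Nnat encodes neuronatin, a small membrane protein of the endoplasmic reticulum, is paternally expressed, and lies within Blcap on chromosome 2 (157401879 to 157404573, plus strand). Hair follicle-like cells had 13.5 and 13.5 CPM in Ctrl and 46.4 and 30.3 CPM in TKO (1.55, SE 0.21, adjusted p = 0.00518). Basal-like cells had 3.71 and 3.79 CPM in Ctrl and 11.9 and 8.77 CPM in TKO (1.45, SE 0.22, adjusted p = 0.00973). No library left out ended the basal-like call. The follicle call was lost without TKO 1 (1.23) and without TKO 2 (1.83). The call over all keratinocytes (1.32, adjusted p = 0.0262) was lost without Ctrl 1 or Ctrl 2, and with no expression filter. Fibroblast-like Nnat was low, at 17 to 38 UMIs per library (0.14, adjusted p = 0.998), and the difference between the classes did not pass (1.19, SE 0.50, adjusted p = 0.56).

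In the Snrpn domain, one member moved and its neighbours did not pass. Ndn encodes necdin, a MAGE-family growth suppressor read from the paternal allele (chromosome 7, 61995473 to 62000010, plus strand). It was at 4.34 and 5.58 CPM in Ctrl hair follicle-like cells and at 13.03 and 9.64 CPM in TKO (1.24, SE 0.25, adjusted p = 0.0202). In basal-like cells it went from 1.86 and 2.48 CPM to 5.42 and 4.23 CPM (1.14, SE 0.27, adjusted p = 0.0398). The basal-like call was lost without Ctrl 1, Ctrl 2 or TKO 1 and with cells thinned to 5000 UMIs (adjusted p = 0.0691). The follicle call was lost without any 1 library, with the same thinning, with uncorrected components and with Leiden resolution 0.5. Over all keratinocytes Ndn did not pass (1.20, adjusted p = 0.0705). The difference from fibroblast-like cells was 1.42 (SE 0.22, adjusted p = 0.0247), lost without Ctrl 1 (adjusted p = 0.129) or Ctrl 2 (0.0725).

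Snrpn, which encodes a splicing protein, was at 16.0 and 17.1 CPM in Ctrl keratinocytes and 14.6 and 11.8 CPM in TKO (-0.35, adjusted p = 0.218). Ube3a, a ubiquitin ligase gene imprinted in neurons, was at 152, 146, 140 and 146 CPM in the 4 libraries (-0.08, SE 0.09, adjusted p = 0.668). Magel2, a MAGE gene next to Ndn, had 3 UMIs in all keratinocytes (0, 0, 1 and 2) and 64 in fibroblast-like cells, too few for a test in keratinocytes.

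The Kcnq1ot1 domain held members that moved in opposite directions. Phlda2, a maternally expressed pleckstrin-homology gene that limits placental growth (chromosome 7, 143055282 to 143056887, minus strand), was at 20.7 and 27.7 CPM in Ctrl basal-like cells and at 77.8 and 48.5 CPM in TKO (1.37, SE 0.24, adjusted p = 0.0155). No library left out ended that call. Hair follicle-like cells went from 3.20 and 3.80 CPM to 21.1 and 12.7 CPM (2.31, SE 0.29, adjusted p = 0.004). The follicle call was lost without TKO 1 (1.92) or TKO 2 (2.63), with uncorrected components and with Leiden resolution 0.5. The lowest follicle value among the alternatives was 1.19. Over all keratinocytes the change of 1.44 stood at an adjusted p of 0.054. Fibroblast-like cells had 1, 0, 10 and 3 Phlda2 UMIs, so its change there was not tested.

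Ascl2, a maternally expressed bHLH transcription factor required in the placenta (142520564 to 142523006, minus strand), went the other way. Basal-like cells had 2.57 and 2.25 CPM in Ctrl and 0.66 and 0.52 CPM in TKO (-2.02, SE 0.32, adjusted p = 0.0118), a call lost without Ctrl 1 (-1.93, adjusted p = 0.058). In keratinocytes as a whole the Ascl2 count was 220 and 150 UMIs for Ctrl, against 37 and 52 for TKO (-1.82, adjusted p = 0.0285). That call was lost without Ctrl 1, Ctrl 2 or TKO 1, and with no expression filter. In differentiating-like cells Ascl2 was at 5.22 and 5.04 CPM in Ctrl and 1.59 and 2.43 CPM in TKO, and did not pass (-1.41, adjusted p = 0.144).

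The domain's long noncoding RNA Kcnq1ot1, which silences its neighbours on the paternal chromosome, was at 334 and 267 CPM in Ctrl keratinocytes and 237 and 281 CPM in TKO, so the groups overlapped (-0.23, SE 0.17, adjusted p = 0.445). Cdkn1c, a cyclin-dependent kinase inhibitor gene, also overlapped, at 98.2, 94.3, 101 and 57.7 CPM (-0.30, adjusted p = 0.486). Its groups did not overlap in basal-like cells (129 and 122 against 112 and 67.9 CPM; -0.49, adjusted p = 0.174) or in differentiating-like cells (77.7 and 67.4 against 59.5 and 33.5 CPM; -0.76, adjusted p = 0.253). In hair follicle-like cells the value was 0.38 (adjusted p = 0.289). Slc22a18, a transporter gene, was at 7.32 and 8.27 CPM in Ctrl and 5.89 and 5.74 CPM in TKO (-0.44, adjusted p = 0.184).

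In the Dlk1-Meg3 domain on chromosome 12, noncoding RNAs of the maternal allele were raised. Meg3 (109506877 to 109538165, plus strand) was at 3.16 and 2.51 CPM in Ctrl basal-like cells and 21.5 and 7.50 CPM in TKO (2.34, SE 0.47, adjusted p = 0.0242). Leaving out 1 library gave changes from 1.42 to 2.90, and the call was lost without Ctrl 2. Hair follicle-like cells had 6.25 and 9.22 CPM in Ctrl and 37.4 and 14.9 CPM in TKO (1.80, SE 0.41, adjusted p = 0.0315). Leaving out any 1 library ended this call (1.02 without TKO 1), as did keeping doublets, uncorrected components and Leiden resolution 0.5. In both classes TKO 1 was far above TKO 2. Over all keratinocytes Meg3 did not pass (1.43, adjusted p = 0.16), and there 181 and 156 of the 409 and 385 Ctrl UMIs came from a Ccer2-led cluster of 74 cells. It held 31, 21, 13 and 9 cells of the 4 libraries, and the 8 Merkel markers in it summed to 21966 and 25454 CPM in Ctrl and to 124 and 271 CPM in TKO. Only its Ctrl cells were therefore Merkel-like. With uncorrected components the Merkel-like cells numbered 31 and 22 in Ctrl and 0 and 0 in TKO. With the Ccer2-led cluster left out, Meg3 changed by 2.15 (adjusted p = 0.0701).

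Rian, a noncoding RNA that hosts small nucleolar RNAs (109570242 to 109628150, plus strand, with Rtl1 on the other strand), was at 0.26 and 0.23 CPM in Ctrl basal-like cells and 2.17 and 1.19 CPM in TKO (2.74, SE 0.46, adjusted p = 0.0144). It rested on 8 and 7 UMIs in Ctrl, and without Ctrl 2 the adjusted p was 0.055. In hair follicle-like cells the Ctrl count was 5 and 7 UMIs, against 65 and 44 for TKO (3.44, SE 0.46, adjusted p = 0.00509), lost without TKO 1 (adjusted p = 0.159) or TKO 2 (0.0786). The keratinocyte call for Rian (2.27, adjusted p = 0.0486) was lost without Ctrl 1, Ctrl 2 or TKO 1, at adjusted p = 0.364, 0.123 and 0.0736. The call was also lost with doublets kept (2.09, adjusted p = 0.0598), with a minimum of 3000 genes per cell (2.30, adjusted p = 0.0549) and with no expression filter (2.26, adjusted p = 0.095). The Ccer2-led cluster gave 15 of 31 and 20 of 36 Rian UMIs in Ctrl keratinocytes, and 12 of 194 and 1 of 87 in TKO. With it left out, Rian changed by 3.26 (adjusted p = 0.023). The difference from fibroblast-like cells, 1.98, stood at an adjusted p of 0.0548.

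The protein-coding members of this domain behaved otherwise. Dlk1, a paternally expressed Notch-ligand-like gene, was at 0.67 and 1.64 CPM in Ctrl keratinocytes and 2.91 and 0.68 CPM in TKO (0.62, SE 0.73, adjusted p = 0.65), far below its 2818 to 6290 CPM in fibroblast-like cells. Dio3, which inactivates thyroid hormone, was counted 22 and 18 times in Ctrl keratinocytes, against 0 and 3 for TKO, and did not pass (adjusted p = 0.0756). Of its Ctrl UMIs, 17 and 17 came from the Merkel-like Ctrl cells. Mirg, a microRNA host, had 28 UMIs over all keratinocytes (7, 4, 9 and 8) and was not tested there.

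In the H19-Igf2 domain the growth factor fell while its noncoding neighbour did not pass. Igf2 (chromosome 7, 142204503 to 142220694, minus strand) was at 5.18 and 5.16 CPM in Ctrl basal-like cells and at 2.99 and 2.41 CPM in TKO (-0.94, SE 0.23, adjusted p = 0.0438). The call was lost without Ctrl 1, Ctrl 2 or TKO 2, at adjusted p = 0.169, 0.163 and 0.072, and with doublets kept (-0.90, adjusted p = 0.0543). In differentiating-like cells Igf2 stood at 5.68 and 6.11 CPM in Ctrl and at 3.42 and 3.58 CPM in TKO (-0.84, adjusted p = 0.202). H19, the maternally expressed noncoding RNA, ran from 330 to 415 CPM in keratinocytes with overlapping groups (-0.14, SE 0.14, adjusted p = 0.612).

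The remaining domains gave no call. Over all keratinocytes the groups overlapped for Airn, Grb10, Gnas, Plagl1, Zdbf2 and Zrsr1, and did not for Igf2r, Impact, Sgce, Peg10 and Peg13. No share of all genes without overlap was set beside this. Airn, the noncoding RNA that silences Igf2r, was at 224 and 215 CPM in Ctrl keratinocytes and 242 and 188 CPM in TKO (-0.05, SE 0.13, adjusted p = 0.85). Its antisense partner Igf2r, the receptor that clears Igf2, was at 57.9, 62.7, 79.1 and 63.5 CPM (0.22, adjusted p = 0.308). Grb10, an adaptor that restrains insulin signalling, was at 122, 128, 168 and 121 CPM (0.19, SE 0.15, adjusted p = 0.494), and Gnas, the stimulatory G-protein subunit, at 610, 704, 691 and 535 CPM (-0.12, SE 0.14, adjusted p = 0.65). Plagl1, a zinc-finger regulator of imprinted genes, was at 37.0, 38.1, 39.5 and 37.9 CPM (0.03, SE 0.09, adjusted p = 0.895). None of these 5 genes passed in any class.

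Impact, a regulator of the Gcn2 kinase, was at 47.6 and 42.8 CPM in Ctrl keratinocytes and 48.7 and 55.2 CPM in TKO (0.19, SE 0.13, adjusted p = 0.423). Sgce, a sarcoglycan gene, was at 23.0 and 26.3 CPM in Ctrl and 21.3 and 20.9 CPM in TKO (-0.24, SE 0.12, adjusted p = 0.281), while its neighbour Peg10, a retrotransposon-derived gene, was at 1.41, 1.76, 3.43 and 2.21 CPM (0.81, adjusted p = 0.161). The Ccer2-led cluster gave 20 of 96 and 11 of 101 Peg10 UMIs in Ctrl keratinocytes, and 1 of 180 and 0 of 120 in TKO. In basal-like cells Peg10 changed by 0.85 (adjusted p = 0.09). Zdbf2 was at 14.6, 27.2, 17.6 and 5.04 CPM (-0.91, SE 0.58, adjusted p = 0.393), with the largest SE among these genes. Zrsr1, a splicing-factor retrogene, was at 6.15, 8.20, 8.63 and 5.32 CPM (-0.06, SE 0.27, adjusted p = 0.917). Peg13, a noncoding RNA inside Trappc9, had 83, 58, 38 and 37 UMIs (-0.68, SE 0.29, adjusted p = 0.216). Annotated overlaps touch 23 of the members, so part of the UMIs of such a member could come from an overlapping gene.

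Within the keratinocytes the called members differed in how many clusters had both TKO libraries above both Ctrl libraries. Mest was higher in both TKO libraries than in both Ctrl libraries in 8 of 8 basal-like clusters, in 4 of 4 differentiating-like clusters and in 3 of 4 hair follicle-like clusters. In the basal-like clusters Ctrl levels of Mest lay between 0 and 10.4 CPM and TKO levels between 12.3 and 128 CPM. The highest, 128 CPM, was TKO 1 in a cluster of 135 cells led by haemoglobin genes, and leaving that cluster out kept the number of called members at 10 in basal-like cells. Phlda2, Nnat, Zim1 and Meg3 also stood higher in both TKO libraries in 8 of 8 basal-like clusters. Ndn, Rian and Peg3 did so in 6 of 8. Nnat, Phlda2, Meg3 and Rian were higher in 4 of 4 hair follicle-like clusters, Zim1 and Ndn in 3 of 4 and Peg3 in 2 of 4. A Dkk4-led follicle-like cluster of 370 cells held 88, 78, 100 and 104 cells of the 4 libraries. All follicle-like cells numbered 521, 670, 298 and 425 in the same order. That cluster gave 8, 8, 128 and 102 Phlda2 UMIs and 3, 1, 137 and 36 Mest UMIs. The groups thus differed in follicle-like make-up, and its part in the summed follicle changes was not tested. In the differentiating-like clusters Zim1 was higher in 4 of 4, Nnat and Peg3 in 3 of 4, Ndn and Rian in 2 of 4, and Phlda2 and Meg3 in 1 of 4. In the Ccer2-led cluster Nnat was at 54.6 and 73.6 CPM in Ctrl and 41.5 and 17.4 CPM in TKO, and Meg3 at 353 and 522 CPM in Ctrl and 188 and 31.2 CPM in TKO; since the TKO cells there lacked the Merkel markers, these values do not compare like cells. Clusters of 1 library are not independent. Of all genes, 8.12% were called raised in the summed basal-like cells, and the share of genes ordered this way cluster by cluster was not computed. When the change in basal-like cells was tested against that in differentiating-like cells, a comparison chosen after the class values were seen, no member passed in edgeR where 0.2% of all genes did. The unadjusted p was under 0.05 for 4 of 29 members and for 2347 of 18019 genes, and the Mest difference was 2.12 (SE 0.47, adjusted p = 0.152).

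**Figure D3:**
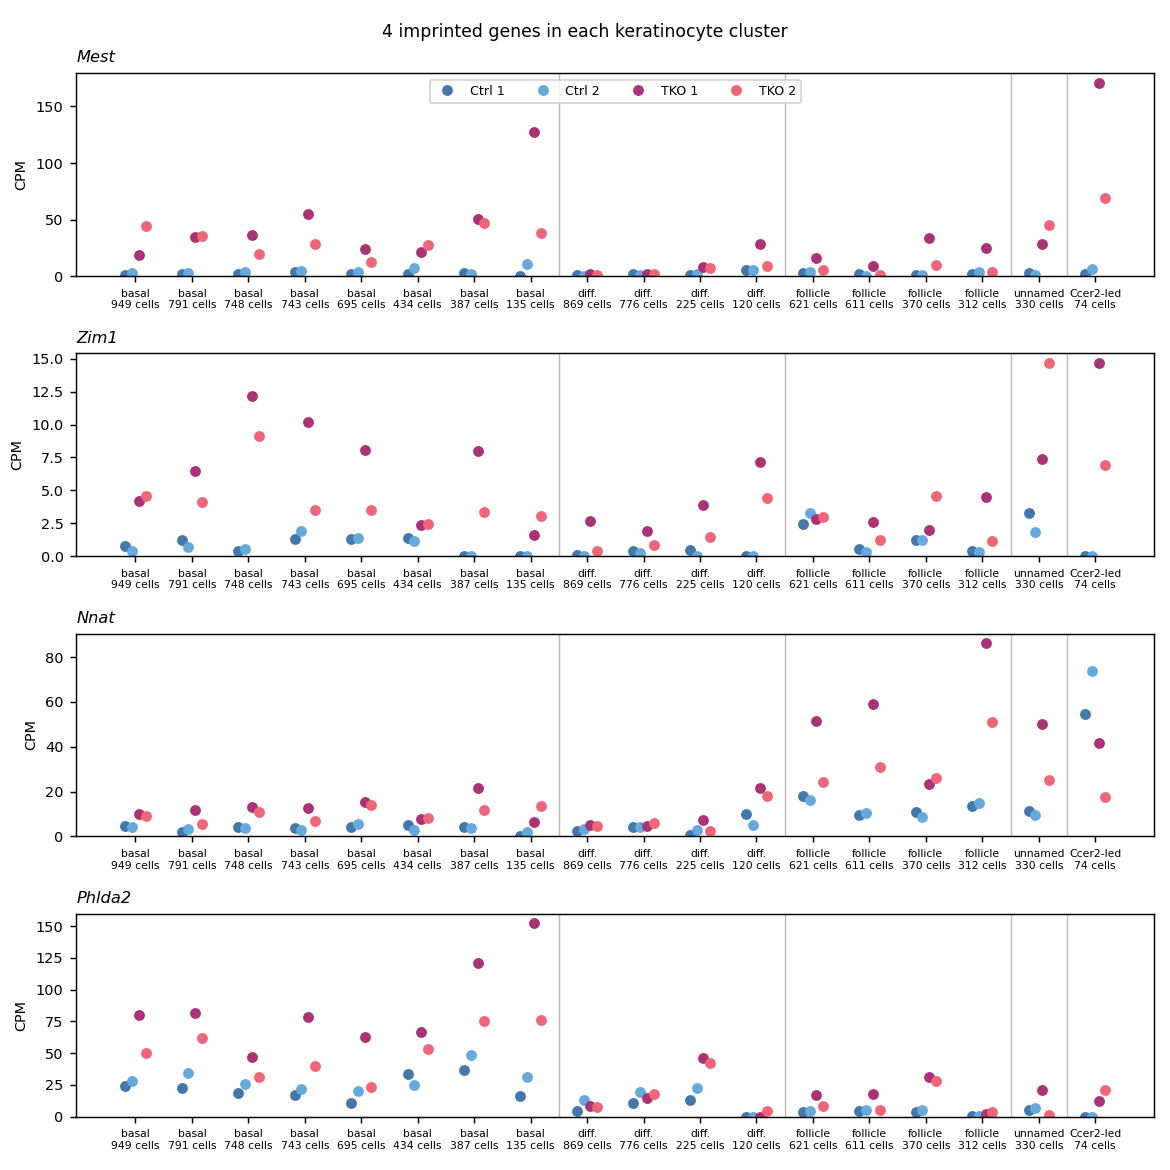
CPM (y axis, linear from 0) of Mest, Zim1, Nnat and Phlda2 in each keratinocyte cluster (x axis, by class, with its number of cells), 1 point per library. TKO points lie above Ctrl points in all 8 basal-like clusters, and Mest peaks at 171 CPM in the 13 TKO 1 cells of the Ccer2-led cluster, whose Ctrl cells carry Merkel markers and whose TKO cells do not.

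RNA of other cell types in the keratinocyte sums was examined beside these changes. The 8 fibroblast markers summed to 183 and 227 CPM in Ctrl keratinocytes and to 80.1 and 86.9 CPM in TKO, against 32552 to 43573 CPM in fibroblast-like cells, and none of the 8 was at 0. Only 1 of the 8 was over 10 CPM in keratinocytes, so that sum leaned on 1 gene. Col1a1, Col1a2 and Col3a1 together were at 13.8 and 22.3 CPM there in Ctrl and at 16.1 and 8.08 CPM in TKO, so the groups overlapped. For each library, the UMIs that fibroblast RNA would bring were estimated from Col1a1, Col1a2 and Col3a1 in keratinocytes, as if those collagens all came from fibroblasts. Mest had 13.6 and 33.0 such UMIs against 130 and 164 observed in Ctrl, and 27.1 and 11.9 against 1451 and 960 in TKO. Zim1 had 4.33 and 2.30 against 271 and 182 in TKO, and Ndn had 4.72 and 1.88 against 358 and 260. With the estimate subtracted, the same number of members, 5 over all keratinocytes and 10 in basal-like cells, was called. For Dlk1 the estimate was 129.6 and 53.6 UMIs against 153 and 37 observed in TKO. In Ctrl it was 84.7 and 208.6 against 46 and 94 observed, 184% and 222% of the count, so the estimate can overshoot. For Meg3 the estimate was 95.5 and 184 of 409 and 385 UMIs in Ctrl, and for Rian it was 18.2 and 27.6 of 31 and 36. The haemoglobin and other erythroid markers summed to 4568 and 15878 CPM in TKO fibroblast-like cells against 25.5 and 29.8 in Ctrl, and their part in the fibroblast values was not tested.

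**Figure D4:**
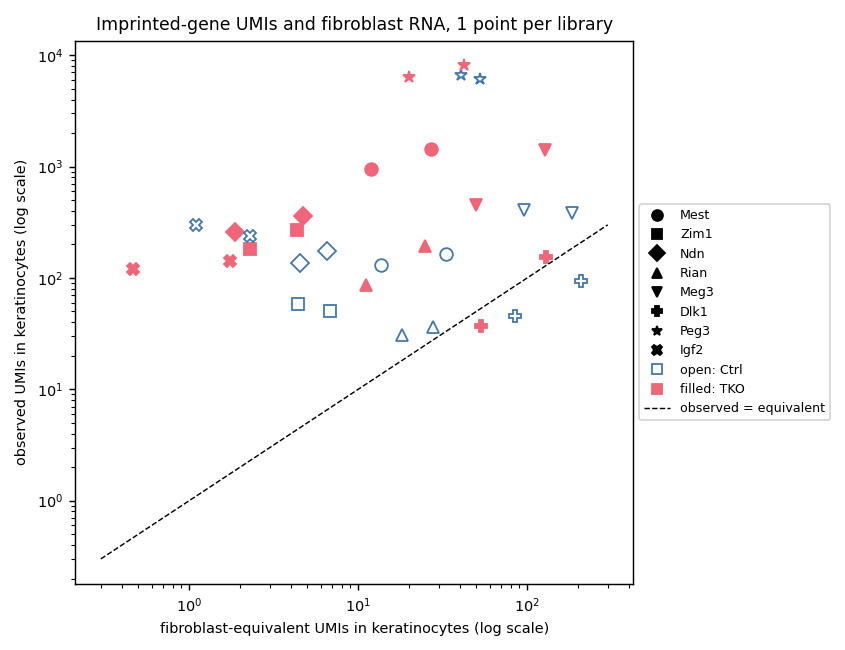
Observed UMIs in keratinocytes (y axis, log scale) against the UMIs that fibroblast RNA would bring (x axis, log scale) for 8 members, 1 point per library, open for Ctrl and filled for TKO; the dashed line marks equal values. Mest in TKO, with 1451 and 960 observed UMIs, sits far above the line, and Dlk1 lies on or below it except in TKO 1.

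A list of 25 genes that keep imprints (readers of the methylated hexamer, DNA methyltransferases, their partners and H3K9 methyltransferases, Setdb1 among them) was examined next to the members. Over all keratinocytes 23 were tested, 2 were raised and 1 was lowered, and the median change was 0.03. Atf7ip, which protects SETDB1 from degradation and keeps it in the nucleus, rose by 1.51 (SE 0.16, adjusted p = 0.0106) and also passed in the basal-like, differentiating-like and hair follicle-like fits. Its difference from fibroblast-like cells, 1.44, passed as well (SE 0.21, adjusted p = 0.0193). Dnmt3b, a de novo DNA methyltransferase, rose by 0.99 (SE 0.17, adjusted p = 0.0336). Setdb1, a deleted gene, was the one that fell. A second list of 55 other imprinted genes had 37 tested over all keratinocytes, of which Tnfrsf23, a decoy TNF receptor, rose by 1.53 (adjusted p = 0.0487) and Cobl, an actin nucleator, fell by 1.39 (adjusted p = 0.0282). In basal-like cells 2 of 36 rose, the translation gene Mcts2 (0.60) and the tetraspanin Cd81 (0.55). The 5 that fell there were Rasgrf1 (-3.25), Cobl (-1.15), Snhg14 (-0.76), Phactr2 (-0.58) and the proteoglycan gene Dcn (-0.56). In hair follicle-like cells Smoc1 (-2.96), Cobl (-2.01) and Pon3 (-1.15) fell and none of 34 rose. In differentiating-like cells Tnfrsf23 was the 1 call among 32 (2.03), and in fibroblast-like cells edgeR called none of 39, with 2 at an unadjusted p under 0.05. These lists were chosen like the members and are set beside the same background shares as above.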

How the data were processed

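Single-cell RNA was measured with the 10x 3′ kit in 4 libraries, 2 Ctrl and 2 TKO, of sorted skin cells. The authors deposited whole-number UMI counts per gene and barcode; the file header names Cell Ranger 7.1.0, while the study's methods name another version, and the build is GRCm39 per the labels. No other values were used. Replicate samples were separate embryos by the study's methods.

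Barcodes with at least 2000 genes and at most 10% mitochondrial UMIs were kept, Scrublet doublets were removed at 0.8% per 1000 barcodes, and cells were clustered in scanpy 1.11.5 (2000 variable genes, 30 components, Harmony correction, 20 neighbours, Leiden resolution 1.0). Keratinocytes were clustered a second time without 1396 genes called between genotypes. The members, both gene lists, and mitochondrial genes were barred from both clusterings. Clusters were named from at least 3 markers; a rule that 3 leading genes of another type remove a name was set after the clusters were seen. UMIs were summed per library and class, and tested with edgeR 4.0.16 quasi-likelihood (TMM, filterByExpr, R 4.3.3), adjusted over all genes by Benjamini-Hochberg; SE is the log2 change over the square root of F. DESeq2 1.42.0 was an alternative. CPM are counts per 1e6 UMIs of the class sum. The difference tests fitted both classes of each library with a library block. On simulated data for keratinocytes (19926 genes, 200 changed) log2 changes of 1 and 2 were recovered in 84% and 98%, with 31 unchanged genes called. For fibroblast-like cells (11482 genes) these were 44%, 100% and 21. In both, the changed genes were drawn only from those above the median mean expression. An exact permutation test of 2 against 2 cannot give a two-sided p under 0.333, so model-based tests were used.

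The members and lists were chosen with earlier results of these data known. Every member is named; full values are given for members called in any test and for the member of each domain with the highest mean CPM in keratinocytes. Positions are from GENCODE release M39 by gene ID (31 of 32 members placed). The alternatives are in the closing section. Another 3 settings and the basal-like against differentiating-like comparison were added after the data were seen.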

Additional observations from a re-analysis of the deposited data

Results flagged for a closer look

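The TKO change of 3 members passed the edgeR test of the difference between keratinocytes and fibroblast-like cells, as did 121 of all 20549 genes. The log2 TKO change in keratinocytes minus that in fibroblast-like cells was 2.83 for Mest, 2.39 for Zim1 and 1.42 for Ndn. In keratinocytes each was higher in both TKO libraries than in both Ctrl libraries, although Ndn did not pass there (adjusted p = 0.0705), and their fibroblast-like levels overlapped between groups. None of the 3 calls held under every alternative: Mest was lost without the library block, Zim1 without Ctrl 2, and Ndn without the library block, without Ctrl 1 and without Ctrl 2, and all 3 were lost with the replicate block. Fibroblast-like sums were shallower, at 1440637 to 3831874 UMIs per library against 52494391 to 68274386 in keratinocytes, and the part of that gap was not tested.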

How the results depend on the processing

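Of 374 recomputations of the 24 called member values, 304 stayed past the threshold, 70 did not, and 0 changed sign; the basal-like calls for Mest, Nnat, Zim1 and Phlda2 held in all of theirs. With 2 libraries a group, leaving 1 out gave 0 to 10 called members over all keratinocytes (5 with all libraries), 5 to 12 when only basal-like cells were summed (10), 0 to 6 for the differentiating-like sums (0), 0 to 3 for the hair follicle-like sums (6), and 1 to 8 for the difference from fibroblast-like cells (3); the lone library was assumed to vary like the others. Over all genes the same fits called 2 to 1805 in keratinocytes (1396), 955 to 2899 in basal-like (2218), 113 to 771 in differentiating-like (141), 0 to 1340 in hair follicle-like (1919) and 0 to 159 in fibroblast-like cells (2), 82 to 667 for the difference (121), and 16 to 159 for basal-like against differentiating-like cells (36). DESeq2 called 8 members in keratinocytes and 2 in differentiating-like cells, and 2644, 664, 12 and 220 genes in keratinocytes, differentiating-like cells, fibroblast-like cells and the difference; its size factors in edgeR gave 1 gene in fibroblast-like cells. With no expression filter 2, 9, 7 and 4 members were called in keratinocytes, differentiating-like cells, the difference and basal-like against differentiating-like cells, and 637, 3431, 1856, 346, 671 and 1084 genes in keratinocytes, basal-like, differentiating-like and fibroblast-like cells and the 2 differences. Thinning to 5000 UMIs per cell gave 1228 genes in basal-like, 796 in hair follicle-like and 4 in fibroblast-like cells, and 59 for basal-like against differentiating-like cells. Uncorrected components gave 2 members and 991 genes in hair follicle-like cells, 272 genes in differentiating-like and 1 in fibroblast-like cells, and Leiden resolution 0.5 gave 2 members and 937 genes in hair follicle-like cells. Keeping doublets gave 1 member in differentiating-like cells and 0 genes in fibroblast-like cells, where a minimum of 3000 genes per cell also gave 0. Without the library block, 1 member and 35 genes passed for the difference, and 2 genes for basal-like against differentiating-like cells. Same-numbered libraries did not deviate together (correlation -0.2525 over 20005 genes), so they share only a number; the replicate block, under which Ndn and Igf2 in basal-like cells and Ascl2 and Rian in keratinocytes were no longer called, gave 3 members in keratinocytes and 0 for the difference, and 772, 37, 6, 44 and 0 genes in keratinocytes, differentiating-like and fibroblast-like cells and the 2 differences. Crossed pairing, added after the data were seen, gave 11 and 2 members in keratinocytes and differentiating-like cells, and 3623, 1124, 3038 and 20 genes in keratinocytes, differentiating-like, hair follicle-like and fibroblast-like cells. The cause of these shifts was not tested.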
